A study of Mus musculus with 21 samples.

Results

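The genes of the nuclear pore and of its transport receptors were followed through 21 RNA-seq libraries of mouse bone marrow cells. The set holds every protein-coding gene in the deposited table whose symbol starts with Nup, Kpna, Ipo, Xpo or Tnpo followed by a digit, together with Kpnb1, Cse1l, Ran, Rangap1, Ranbp1, Rcc1, Nutf2 and Xpot. This gave 50 of the 30519 genes in the table, by a rule that uses symbols only. Of these, 21 encode pore proteins or their paralogs, 24 encode importins, transportins and exportins, and 5 belong to the Ran cycle. The study, whose title concerns an ETV6 mutation that makes a nuclear export signal, compared mice carrying Etv6 changes. ETV6 is a transcription factor of the ETS family that acts mainly as a repressor and is needed for blood formation. Cells were labelled as HSC (hematopoietic stem cells) or MEP (megakaryocyte-erythroid progenitors), sorted from bone marrow. The labelled Etv6 genotypes were wild type (WT), P216L, S211I, and S211I with P216L, called the double mutant here. The labels disagree on 1 name: S211I in titles is P211I as a genotype. The HSC groups held 3 WT, 3 P216L, 2 S211I and 3 double mutant libraries, and the MEP groups held 2, 3, 2 and 3 in that order. The sources used here give neither age nor whether 1 or both chromosomes carried an allele. Separate animals are not named in the labels, and the p-values below therefore describe only how far these samples vary, part of which may be technical.

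Proteins and RNA cross the nuclear envelope through pores built from nucleoporins, which form a scaffold of rings and a channel filled with disordered repeats. Importins carry cargo in and exportins carry it out, and the direction is set by the small GTPase Ran, which is loaded with GTP in the nucleus and hydrolyses it in the cytoplasm. Importin alpha proteins (the Kpna genes) read the classical import signal and ride on importin beta (Kpnb1), Cse1l returns importin alpha to the cytoplasm, and Xpo1 exports proteins that carry a leucine-rich export signal. Blood progenitors that divide rebuild their pores after each mitosis, and importin alpha and Ran also act in spindle assembly.

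Depth differed between the cell types. Library totals were 151216 to 2250654 counts in 10 HSC libraries and 3387389 to 12130358 in MEP, and the library labelled HSC S211I replicate 2 held 13154016. Levels in that library lay close to those of MEP, and whether its label is right was not tested. It is shown apart where levels are described, but it is 1 of the 2 libraries behind each fitted HSC S211I value. The S211I medians and the S211I values of Kpna2, Xpo1, Cse1l, Kpnb1, Ran and Rcc1 are therefore given with and without it. Other fitted S211I values include it. Its summed level over 11 MEP and erythroid markers was 22549 CPM (counts per gene scaled to the library total), against 2083 to 18285 in the other HSC libraries and 21740 to 26381 in MEP, with all 11 markers counted. Its 12 HSC markers summed to 1132 CPM, against 1379 to 4942 in the other HSC libraries and 601 to 911 in MEP. Procr had 7.22 CPM in this library, a median of 114 in the other HSC libraries (19.5 to 443) and 0 in MEP (0 to 0.886). Kit, with 913 CPM in this library, had medians of 716 CPM in the other HSC libraries and 686 in MEP. Slamf1, Fgd5 and Mllt3 had higher medians in MEP (1.25, 0.148 and 86.3 CPM) than in the other HSC libraries (0, 0 and 58.6). The remaining listed HSC markers had lower medians in MEP. Over the members, the median distance of this library on the log2(CPM + 1) scale was 0.153 to the MEP median and 1.53 to the median of the other HSC libraries.

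Promoters are shown for Kpna2, the only member that edgeR called in a comparison of genotypes, and for Ran, Rcc1 and Nup133, the members with the smallest p between the cell types. They come from RefSeq on GRCm38.p6 and run from 250 bases before to 50 after the transcription start, in the direction of the gene. Capitals mark matches on either strand to CCAAT, to TTTGAA (the core of the cell cycle element CHR) or to TTCCCGCC (an E2F-type motif), and CCGGAAGT (an ETS-type motif) was searched as well. The promoters lie on the minus strand at chr11:106999476-106999775 (Kpna2), chr4:132345701-132346000 (Rcc1) and chr8:123949216-123949515 (Nup133), and on the plus strand at chr5:129019906-129020205 (Ran).
Kpna2: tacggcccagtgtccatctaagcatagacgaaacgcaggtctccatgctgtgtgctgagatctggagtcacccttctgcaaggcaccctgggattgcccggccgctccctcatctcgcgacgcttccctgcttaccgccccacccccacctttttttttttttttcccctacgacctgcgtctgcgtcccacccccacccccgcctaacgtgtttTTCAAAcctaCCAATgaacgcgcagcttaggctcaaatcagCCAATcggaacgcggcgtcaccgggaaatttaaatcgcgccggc
Ran: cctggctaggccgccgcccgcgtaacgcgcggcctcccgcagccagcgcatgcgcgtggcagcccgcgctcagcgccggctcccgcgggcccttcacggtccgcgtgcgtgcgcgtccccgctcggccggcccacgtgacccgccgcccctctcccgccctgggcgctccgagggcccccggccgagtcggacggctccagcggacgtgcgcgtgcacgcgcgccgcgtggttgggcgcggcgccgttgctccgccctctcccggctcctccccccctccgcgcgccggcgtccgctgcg
Rcc1: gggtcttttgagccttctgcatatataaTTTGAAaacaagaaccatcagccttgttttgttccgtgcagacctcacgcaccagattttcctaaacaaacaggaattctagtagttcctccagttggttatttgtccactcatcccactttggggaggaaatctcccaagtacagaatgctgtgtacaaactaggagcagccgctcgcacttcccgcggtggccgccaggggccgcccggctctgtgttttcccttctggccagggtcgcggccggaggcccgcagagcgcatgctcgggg
Nup133: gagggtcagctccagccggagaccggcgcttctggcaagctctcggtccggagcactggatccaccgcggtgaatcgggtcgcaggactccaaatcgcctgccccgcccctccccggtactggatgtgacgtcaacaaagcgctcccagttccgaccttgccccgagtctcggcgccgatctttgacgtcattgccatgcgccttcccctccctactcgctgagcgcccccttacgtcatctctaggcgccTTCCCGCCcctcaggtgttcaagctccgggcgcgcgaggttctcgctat
The Kpna2 promoter held TTTGAA on the opposite strand at position -35 and CCAAT at -25 and +7, counted from the transcription start. Rcc1 held TTTGAA at -222, Nup133 held TTCCCGCC at +2, and the Ran window held none of the 4 motifs.

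RefSeq promoters were matched for 40 of the 50 members. CCAAT was present in 21 of the 40 (52.5%) and in 42.3% of the promoters of 17492 protein-coding genes, and TTTGAA in 10 (25.0%) and 18.5%. TTCCCGCC was present in 3 of the 40 (7.50%, against 3.28%), namely Nup133 at +2, Nup210 at -75 and Ranbp1 at -119 and -36. The ETS-type motif CCGGAAGT was present in 4 (10%, against 5.69%): Ipo4 at -9, Nup155 at -8, Nup54 at -76 and Tnpo3 at -98 and +1. None of these 4 genes passed in the main edgeR fits in any of the 15 comparisons. Alternative fits called some members that edgeR did not, such as Nup54 in HSC S211I against WT by voom. A link between motif and call was not tested. A match describes letters only. The 4 motifs were searched separately, and an overlap between matches was not removed.

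Members took a larger share of the transcripts in MEP than in HSC. They summed to 0.875 to 1.05% of all counts in the 10 MEP libraries and to 0.327 to 0.841% in the 10 HSC libraries other than S211I replicate 2, with no overlap. Within HSC, the 3 WT libraries held 0.365, 0.327 and 0.643%, and the 7 mutant libraries 0.590 to 0.841%. Without Kpna2 and Ran, the other 48 members summed to 6418 to 8378 CPM in MEP and 2844 to 6410 CPM in HSC, without overlap. In bulk libraries a smaller number of cells that express a gene and less of its RNA in each cell cannot be told apart.

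Fewer members were detected in HSC. Of the 50 members, 47 to 49 had a count in each MEP library and 22 to 46 in each HSC library. With every library reduced to 151216 counts, the expected numbers were 46.5 to 46.9 in MEP and 21.7 to 43.8 in HSC, so the HSC libraries held fewer members at an equal total count too. Detection was lower over all genes as well: 3988 to 10280 genes had a count in these 10 HSC libraries and 12723 to 15914 in MEP. Whether members differed in this from other genes was not tested. Kpna7, an importin alpha of oocytes, and the pore paralogs Nup210l and Nup62cl never exceeded 0.444 CPM in any library, and none of them could be tested. The other 47 members passed the filter on low counts, and all 47 had a count in all 10 MEP libraries. In HSC, 37 of the 47 were at 0 in at least 1 of the 10 libraries. The 10 counted in each of them were Ran, Ranbp1, Nup85, Nup88, Cse1l, Xpo1, Xpo6, Kpna1, Ipo11 and Tnpo1.

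**Figure D1:**
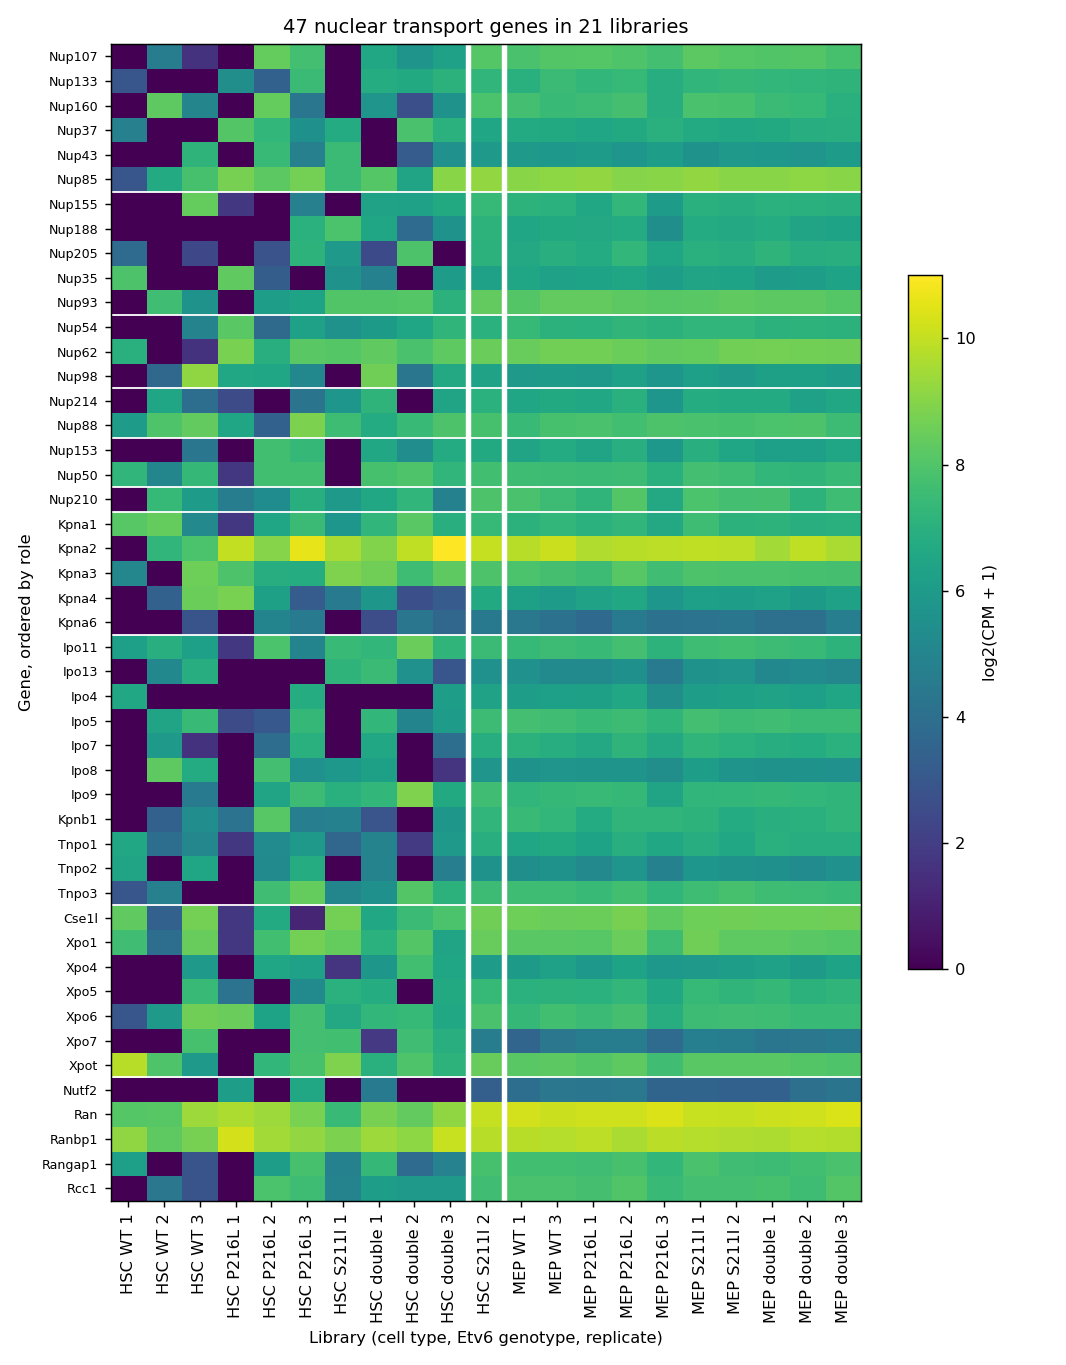
Level of the 47 tested members (rows, ordered by role in the pore or in transport) in the 21 libraries (columns), as log2(CPM + 1), with HSC S211I replicate 2 between the HSC and MEP blocks. MEP columns resemble one another, while 37 members are at 0 (darkest) in at least 1 of the 10 HSC libraries to the left.

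The spread between libraries was wide in HSC. The coefficient of variation over 10 libraries was larger in HSC than in MEP for 47 of 47 members, with medians of 1.15 (0.446 to 1.86) and 0.135 (0.0501 to 0.288). This was not particular to the members. Over all genes tested, the common coefficient of variation within groups fitted by edgeR was 1.6 in HSC (11 libraries) and 0.174 in MEP. As a result, the highest HSC library exceeded the highest MEP library for 37 of 47 members, although the HSC median lay below the lowest MEP library for 36. Nup98, a channel protein, shows the pattern: it was at 0 in 2 HSC libraries, with a median of 61.8 and a highest value of 575 CPM, and ranged from 53.1 to 78.1 CPM in MEP. Its HSC values lay on both sides of the whole MEP range. The shares of all genes to set beside the counts of 37 and 36 are not given here.

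Between cell types, 12 of the 47 members were higher in MEP and 0 were lower, taking the mean over WT, P216L and the double mutant, the 3 genotypes whose groups do not include the library shown apart (edgeR quasi-likelihood test, adjusted p under 0.05). Over all 12036 genes tested, 16.2% were called higher and 6% lower (22.2% in all). The members' median difference (MEP minus HSC) was 1.66 on the log2 scale, against 0.73 over all genes tested, and 44 of the 47 were above 0. Ran alone had all 10 MEP libraries above all 10 HSC libraries, a pattern shown by 3.65% of all genes, and it held with HSC S211I replicate 2 included (0.781% of all genes). With RLE size factors in place of TMM, the median of all genes fell from 0.73 to 0.31 and that of the members to 1.24, and 5 members were called. The share of all genes called with RLE is not given here.

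The Ran cycle held 4 of the 12 calls. Ran, the GTPase itself, had 1051, 1172 and 1376 CPM as its lowest, median and highest values in the 10 MEP libraries. In the 10 HSC libraries they were 167, 438 and 791 CPM. The ranges did not overlap, and the difference was 1.72 ± 0.34 (log2 ± SE, edgeR, adjusted p = 0.00152). Rcc1, the exchange factor that loads Ran with GTP on chromatin, stood at 177, 219 and 262 CPM in MEP (lowest, median, highest). Its HSC values were 0, 44.5 and 239 CPM. By library, Rcc1 had 0, 19.5 and 6.24 CPM in WT HSC, 0, 239 and 193 in P216L, 29.4 in S211I replicate 1, and 68.6, 59.6 and 61.3 in the double mutant. WT HSC were thus near 0, double mutant HSC agreed closely with each other at a level below MEP, and P216L replicates 2 and 3 lay inside the MEP range. The Rcc1 difference was 2.70 ± 0.72 (edgeR, adjusted p = 0.00923).

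Rangap1, which triggers hydrolysis on the cytoplasmic side, had a median of 27.8 CPM in HSC (0 to 221) and 200.3 in MEP (155 to 232), a difference of 2.31 ± 0.81 (edgeR, adjusted p = 0.0399). Ranbp1, its cofactor, had medians of 585 (309.5 to 1270.4) and 874 (779 to 968) CPM, the smallest difference of the 12 at 0.86 ± 0.28 (edgeR, adjusted p = 0.0281). P216L replicate 1 (1270.4 CPM) and double mutant replicate 3 (1079 CPM) of HSC lay above all MEP libraries. Nutf2, which brings Ran back into the nucleus, was at 0 in 7 of 10 HSC libraries and at 9.58 to 20.3 CPM in MEP, and missed the threshold (3.01 ± 1.57, edgeR, adjusted p = 0.176). Ran and Rcc1 passed under each of the 25 alternatives run on this comparison. Ranbp1 failed in 7 of the 25. It did not pass without MEP WT replicate 1, MEP WT replicate 3 or MEP P216L replicate 3 (edgeR, adjusted p = 0.0635, 0.0684 and 0.0534), with no filter on low counts (0.317), with thinned counts (0.149), with DESeq2 (0.242) or with RLE size factors (0.334). Rangap1 failed in 16 of the 25 (adjusted p up to 0.109), 13 of them by leaving out 1 library.

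**Figure D2:**
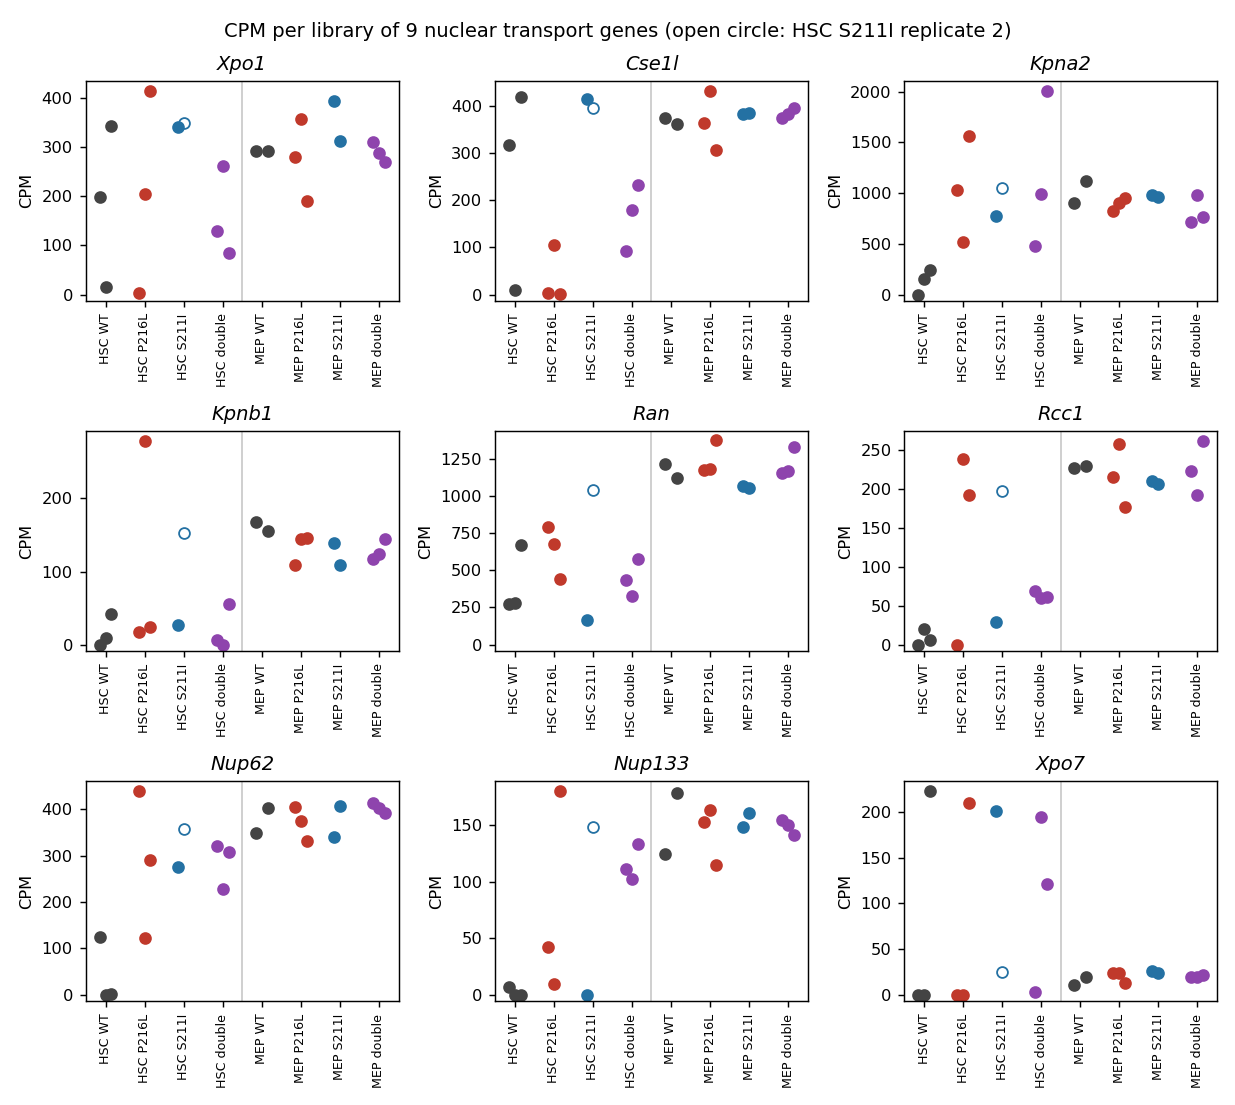
CPM in each library (points) for 9 genes, by cell type and Etv6 genotype, with HSC S211I replicate 2 as an open circle. The 10 MEP libraries cluster tightly in each panel, while the HSC libraries spread more widely. Ran is below MEP in all HSC libraries, and Kpna2 is low in the 3 WT HSC libraries only.

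Pore proteins gave 6 calls, 3 of them in the outer ring, the Y-shaped scaffold that is the first part of the pore to bind chromatin after mitosis. Nup133 had 6.61, 0 and 0 CPM in WT HSC, 41.9, 9.55 and 180.0 in P216L, and 0 in S211I replicate 1. The double mutant libraries had 111, 103 and 133 CPM. Nup133 ranged in MEP from 115 to 179 CPM. WT HSC had almost none (1 count over 3 libraries), and 2 of the 3 double mutant libraries lay below all MEP libraries. The difference was 3.13 ± 0.86 (edgeR, adjusted p = 0.0119). Nup107 had medians of 37.9 CPM in HSC (0 to 339) and 262 in MEP (211.4 to 295), and differed by 2.65 ± 0.81 (edgeR, adjusted p = 0.0214). Nup85 had medians of 246 (6.61 to 529) and 534 (505 to 588) CPM, and differed by 1.57 ± 0.48 (edgeR, adjusted p = 0.0205). Nup160, Nup37 and Nup43 differed by 1.503, 1.67 and 0.91 and did not pass.

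In the inner ring, Nup188 and Nup93 were called. Nup188 was at 0 in all 3 WT HSC libraries and in 2 of 3 P216L libraries, with 128 CPM in the third. It had 235 CPM in S211I replicate 1 and 89.8, 13.5 and 48.9 in the double mutant, against 43.4 to 113 in MEP. The fitted difference of 4.62 ± 1.29 (edgeR, adjusted p = 0.0133) depends on the prior count, because WT HSC is at 0. Nup93, which anchors the channel to the ring, had medians of 108 (0 to 271) and 297 (267 to 330) CPM and differed by 1.96 ± 0.64 (edgeR, adjusted p = 0.0287), and it failed in 3 of the 25 alternatives (0.0563 without MEP WT replicate 3, 0.084 with thinned counts and 0.0804 with RLE size factors). Nup205, Nup155 and Nup35 differed by 2.57, 1.66 and 0.92 and did not pass. Nup133, Nup107 and Nup188 passed under all 25 alternatives.

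Nup62, the repeat protein at the centre of the channel, had 126, 0 and 2.08 CPM in WT HSC and 123 to 438 in the 7 mutant HSC libraries, against 331 to 413 in MEP. Only 1 mutant library, P216L replicate 2, lay below the highest WT library. The cell type difference was 1.93 ± 0.56 (edgeR, adjusted p = 0.0155). Its partner Nup54 differed by 1.87 (edgeR, adjusted p = 0.0579) and Nup98 by -0.65. Nup214 and Nup88 on the cytoplasmic face, Nup153 and Nup50 in the nuclear basket, and the membrane protein Nup210 differed by 0.52 to 2.13, and 0 of these 5 passed.

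Importins gave 1 call. Kpnb1, the importin beta that carries importin alpha and its cargo, had 0, 9.75 and 41.6 CPM in WT HSC, 17.2, 278 and 24.7 in P216L, 27.1 in S211I replicate 1, and 6.41, 0 and 56.0 in the double mutant. MEP ranged from 108 to 168 CPM. P216L replicate 2 was above all MEP libraries, and the other 9 HSC libraries were below them. The difference was 2.32 ± 0.82 (edgeR, adjusted p = 0.041), and it missed the threshold in 12 of 24 alternatives, 11 of which left out 1 library (adjusted p up to 0.0795). The other 10 importin beta and transportin genes differed by -0.11 (Ipo8) to 3.17 (Ipo13), and the closest to the threshold was Ipo13 (edgeR, adjusted p = 0.0548). Ipo4 was at 0 in 7 of 10 HSC libraries and between 42.3 and 93.6 CPM in MEP, and its difference of 1.73 did not pass. The 5 importin alpha genes tested differed by 0.20 (Kpna1) to 1.51 (Kpna6), with 0 calls. Kpna2 differed by 1.10 ± 0.45 (edgeR, adjusted p = 0.0806), and it passed in 7 of 25 alternatives. These were the fits without HSC WT replicate 1, HSC WT replicate 3, HSC P216L replicate 3 or HSC double mutant replicate 3 (edgeR, adjusted p = 0.0369, 0.0312, 0.0307 and 0.0345), with a replicate block (0.0241), with voom (0.0458) and with only the groups compared (0.0418).

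Exportins also gave 1 call. Cse1l, the exportin of importin alpha, had 317, 9.75 and 418 CPM in WT HSC, 2.46, 105 and 1.18 in P216L, 414 in S211I replicate 1, and 93.0, 179 and 233 in the double mutant. MEP ranged from 307 to 432 CPM. WT replicates 1 and 3 and S211I replicate 1 were inside the MEP range, and the 6 P216L and double mutant libraries were all below it. The difference was 2.09 ± 0.63 (edgeR, adjusted p = 0.0203). Xpo1, the receptor for the kind of export signal named in the study's title, had 198, 14.6 and 343 CPM in WT HSC and 2.46, 205 and 414 in P216L. It had 342 CPM in S211I replicate 1 and 129, 263 and 84.0 in the double mutant, against 191 to 394 in MEP. Its HSC and MEP values overlapped, and the difference of 1.01 ± 0.60 did not pass (edgeR, adjusted p = 0.243). Xpo7 was 1 of only 3 members, with Kpna1 and Ipo8, whose HSC median was at or above the MEP median. It stood at 0 in 4 HSC libraries, at 2.56 CPM in 1 and at 122 to 223 CPM in the other 5, while MEP ranged from 11.1 to 26.0. The fitted difference of -1.88 ± 1.14 did not pass (edgeR, adjusted p = 0.251). Xpo4, Xpo5, Xpo6 and Xpot, the tRNA exportin, differed by 0.50 to 1.97 and did not pass.

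With RLE size factors, 7 of the 12 calls were lost: Nup62, Cse1l, Nup85, Nup93, Ranbp1, Rangap1 and Kpnb1 (edgeR, adjusted p = 0.0851, 0.0575, 0.0559, 0.0804, 0.334, 0.109 and 0.0795). DESeq2 did not call Nup62 (adjusted p = 0.052).

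**Figure D3:**
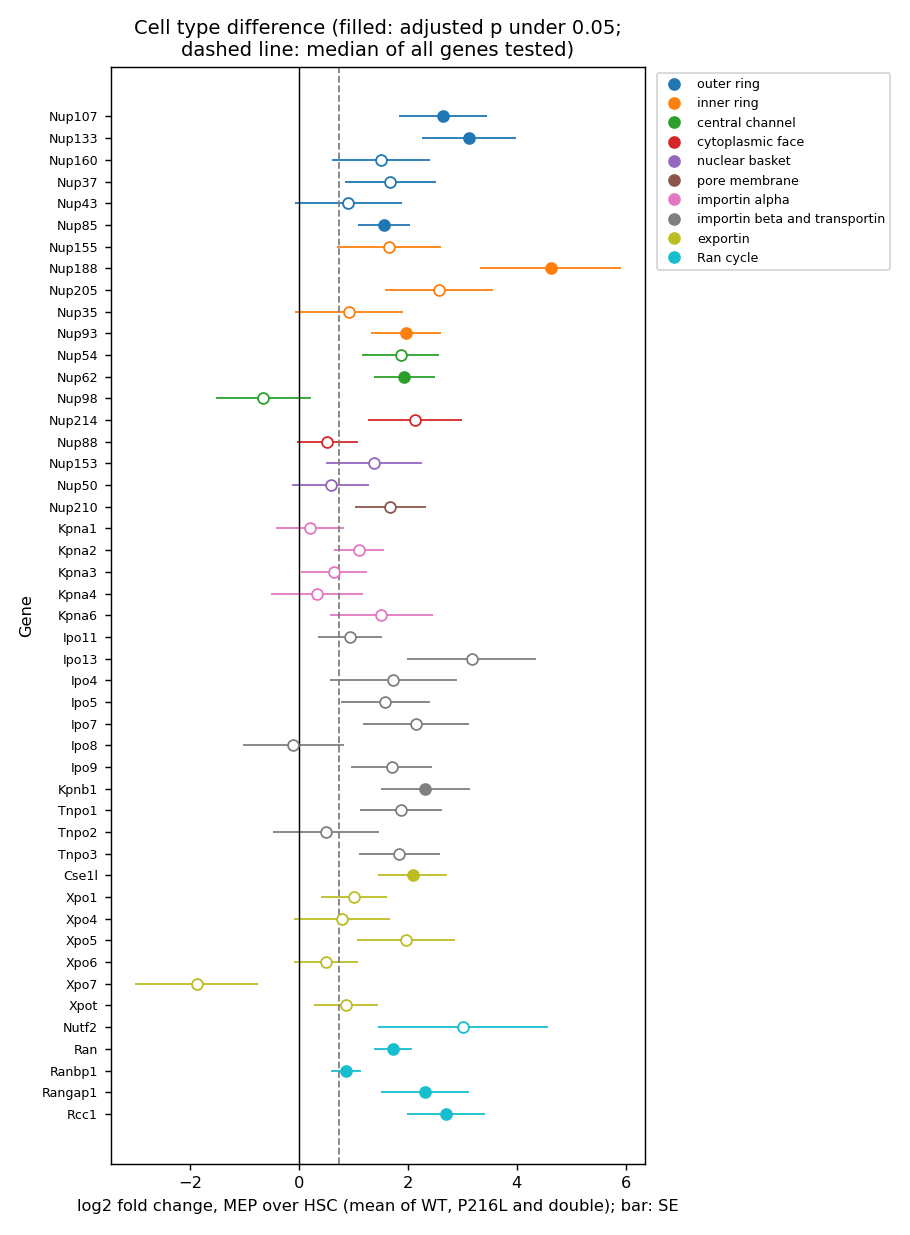
Difference between MEP and HSC (log2, mean of WT, P216L and the double mutant) for the 47 tested members, coloured by role, with bars for ±1 SE. Filled points passed at adjusted p under 0.05 (12 members, all to the right of 0), and the dashed line is the median over all 12036 genes (0.73).

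The count of 12 moved with single libraries. Leaving out HSC WT replicate 3 gave 20 and leaving out HSC P216L replicate 3 gave 25, with 8 to 17 for any other single library, including 17 without HSC S211I replicate 2. The shares of all genes called in these fits are not given here. Whether the members moved more than other genes was not tested. Marker lists were read beside the members, in a fit where 16.2% of all genes were called higher in MEP and 6% lower. The S phase and mitosis sums overlapped between the cell types. The summed level of 14 S phase genes, all detected in MEP, was 8029 to 9154 CPM in MEP and 807 to 11863 in the 10 HSC libraries, and 7 of 14 passed, all higher in MEP. The 14 mitosis genes summed to 2572 to 3262 CPM in MEP and 505 to 5901 in HSC, and 4 passed. Of 11 MEP and erythroid markers 8 passed, and 7 endothelial and stromal markers, with Cdh5 at a median of 0 in both cell types, summed to 2.90 to 16.6 CPM in MEP and 25.9 to 12819 in HSC. The 8 neutrophil markers summed to 2.94 to 137 CPM in MEP and 61.1 to 2300.1 in HSC, and 5 of 8 passed as lower and 1 as higher in MEP. Their part in the members' difference was not tested.

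Within WT alone, 5 of 47 members were higher in MEP (n = 2) than in HSC (n = 3), and 0 were lower, against 3.62% of all genes called higher and 4.1% called in either direction. These were Nup133 (7.66 ± 1.90, edgeR, adjusted p = 0.023), Kpna2 (3.45 ± 0.87, adjusted p = 0.0252), Nup62 (4.23 ± 1.10, adjusted p = 0.0283), Nup188 (adjusted p = 0.0319) and Rcc1 (5.21 ± 1.42, adjusted p = 0.036). Nup188 was at 0 in WT HSC and averaged 95.8 CPM in WT MEP, which is at least 33.3-fold higher when WT HSC is given 3 counts over the group. Nutf2 was at 0 in WT HSC as well and at 17.01 CPM in WT MEP, at least 5.92-fold higher, without a call. The members' median was 1.99, against 0.90 over all genes (0.17 with RLE size factors). Ran differed by 2.10 ± 0.63 (edgeR, adjusted p = 0.0539), Kpnb1 by 3.64 ± 1.54, Cse1l by 1.20 ± 1.14 and Xpo1 by 1.25 ± 1.10, and these 4 did not pass (adjusted p = 0.126 for Kpnb1, 0.535 for Cse1l and 0.496 for Xpo1). The count of 5 was 0 without HSC WT replicate 2, MEP WT replicate 1 or MEP WT replicate 3, 9 without HSC WT replicate 3 and 8 without HSC S211I replicate 2. Shares of all genes called without these libraries are not given here.

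Within P216L, 0 of 47 members were called between the cell types (edgeR, 0.0748% of all genes called, 0.00831% higher and 0.0665% lower, with 6 members at an unadjusted p under 0.05). DESeq2 called 3, named after their values were seen: Cse1l, Nup214 and Ipo13. Ipo13 was at 0 in all 3 P216L HSC libraries and averaged 34.5 CPM in P216L MEP, at least 24.1-fold higher. Cse1l differed by 3.66 ± 1.15 (edgeR, adjusted p = 0.101), Ran by 1.43 ± 0.57 (0.157), Rcc1 by 0.83 ± 1.13 (0.772), Kpnb1 by 0.64 ± 1.32 (0.863), Xpo1 by 0.62 ± 1.00 (0.817) and Kpna2 by 0.16 ± 0.75 (0.956). Without HSC P216L replicate 2, Cse1l passed (edgeR, adjusted p = 0.0339), and without HSC P216L replicate 3, Nup188 did (0.025). Within the double mutant, 0 of 47 were called (edgeR, 0.241% of all genes called, 0.00831% higher, 1 member at an unadjusted p under 0.05, 0 by DESeq2 and by voom). With only the groups compared in the fit, 3 were called: Rcc1, Nup107 and Ran (edgeR, adjusted p = 0.0439 each). The shares of all genes called in that fit, and by DESeq2 in P216L, are not given here. With all libraries in the fit, Ran differed by 1.64 ± 0.58 (edgeR, adjusted p = 0.131), Rcc1 by 2.06 ± 1.17 (0.429), Kpnb1 by 2.69 ± 1.40 (0.357), Cse1l by 1.40 ± 1.05 (0.639), Xpo1 by 1.16 ± 1.01 (0.734) and Kpna2 by -0.31 ± 0.75 (0.959). The members' medians were 0.82 in P216L and 0.94 in the double mutant, against 0.56 and 0.09 over all genes.

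Among HSC genotypes, Kpna2 was the only member called by edgeR, in each mutant against the same 3 WT libraries, while DESeq2 and voom did not call it and called other members. This importin alpha is known to be abundant in dividing cells. WT HSC had 0, 152 and 237 CPM of Kpna2. P216L HSC had 1029.5, 516 and 1558, S211I replicate 1 had 769, and the double mutant had 478, 991 and 2003. All 7 mutant libraries lay above all 3 WT libraries, which held for 1.81% of all genes and for no other member. S211I replicate 2 had 1048 CPM, and the 10 MEP libraries ranged from 712 to 1120 CPM (1119.5 in WT replicate 3).

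Kpna2 rose by 3.03 ± 0.68 in P216L (log2 ± SE, edgeR, adjusted p = 0.0139, where 0.106% of 9471 genes were called), by 3.00 ± 0.72 in S211I (0.0389, 0.0845% called) and by 3.32 ± 0.69 in the double mutant (0.00435, 0.0739% called, 0.0528% higher). The 3 comparisons share the WT libraries. Without WT replicate 1, the values were 2.40, 2.41 and 2.71 (edgeR, adjusted p = 0.23, 0.357 and 0.162), and without WT replicate 2, 3.01, 3.02 and 3.32 (0.264, 0.435 and 0.25). The call was also lost without P216L replicate 1 or 3 (0.455 and 0.26), without S211I replicate 2 (2.52, 0.903, which leaves 1 library in that group) and without double mutant replicate 3 (2.54, 0.624). In all 3 comparisons it was also lost with no filter on low counts, with voom, with DESeq2, with only the groups compared in the fit and with counts thinned to the lowest total (adjusted p = 0.0993 to 0.994), and in S211I with RLE size factors (0.108). The fitted rise stayed between 2.39 and 4.27 under these. The double mutant and P216L did not differ in Kpna2 beyond the spread (0.29 ± 0.63, edgeR, adjusted p = 1).

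The makeup of the importin alpha family, compared per kilobase of transcript, differed between WT and mutant HSC in the same direction. Kpna2 made up 0, 52.3 and 45.0% of the summed importin alpha CPM per kilobase in WT HSC, with Kpna1 leading in replicate 1 (87.4%). It made up 82.0, 80.7 and 91.7% in P216L, 74.3% in S211I replicate 1, and 63.5, 81.5 and 90.4% in the double mutant. All 7 mutant libraries were above WT. In MEP the share was 78.4 to 85.7% and in S211I replicate 2 it was 82.5%, so the mutant HSC values lay around the MEP range and the WT values below it. These shares rest on the same Kpna2 counts and carry no test of their own.

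**Figure D4:**
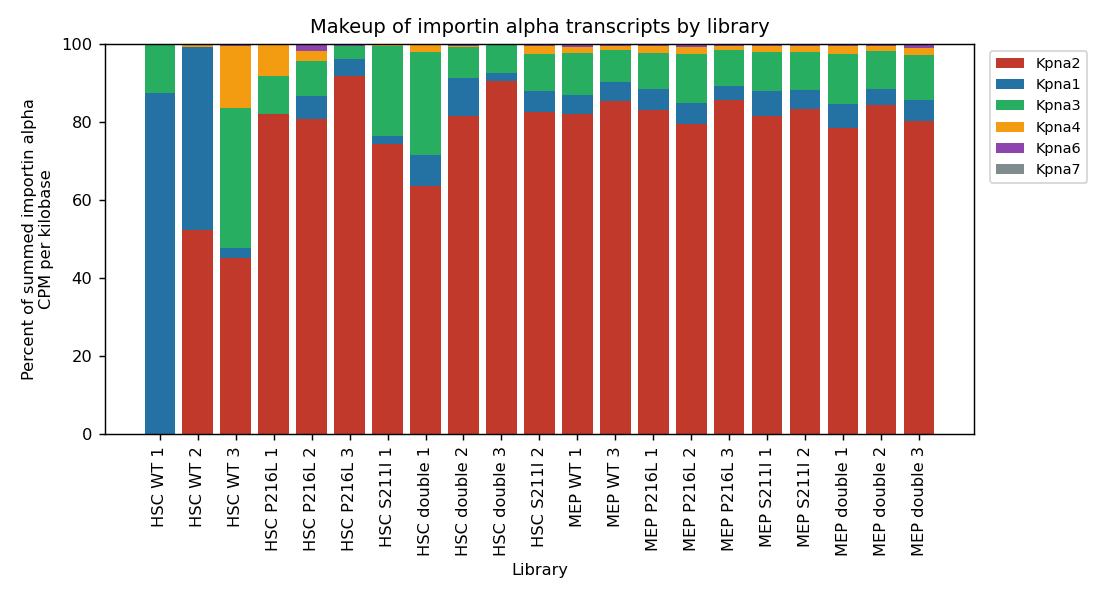
Share of each importin alpha gene in the summed importin alpha CPM per kilobase (stacked bars, percent) in each library. Kpna2 (red) takes 0 to 52.3% in the 3 WT HSC libraries and 63.5% or more in all other libraries.

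Other marker lists were summed by HSC genotype too, and these sums carry no test of their own. Among them, only the MEP and erythroid sum separated WT from mutant libraries. The 11 MEP and erythroid markers summed to 2083 to 6355 CPM in WT HSC and 7473 to 18285 in the 7 mutant libraries, with no overlap, and the 12 HSC markers to 3088 to 4942 and 1379 to 3584. The 14 S phase genes summed to 807 to 2800 CPM in WT HSC and 1823 to 11863 in mutant HSC, and the 14 mitosis genes to 505 to 1592 and 1069 to 5901. Library totals were 151216 to 480419 counts in WT HSC and 369439 to 2250654 in the mutants. The 8 neutrophil markers summed to 222 to 774 CPM in WT HSC and 61.1 to 2300.1 in the mutants, with double mutant replicates 1 and 2 at 2300.1 and 2209. The part of these in the Kpna2 difference was not tested.

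The other 46 members gave 0 calls in any HSC mutant against WT (edgeR, with 7, 4 and 4 at an unadjusted p under 0.05 in P216L, S211I and the double mutant). The shares of all genes at an unadjusted p under 0.05 are not given here. Medians over the 47 members were 0.53, 1.30 and 1.06, against 0.13, 0.43 and 0.44 over all genes. Without S211I replicate 2 the S211I medians were 0.18 over the members and -0.03 over all genes. Nup62, Nup133 and Nup188 had unadjusted p under 0.05 in each of the 3, at adjusted p of 0.372 to 0.599. Against WT, Nup62 differed by 3.12 ± 1.43, 3.51 ± 1.51 and 3.32 ± 1.44, and Nup133 by 5.97 ± 2.90, 6.11 ± 2.98 and 6.58 ± 2.95. Both S211I values include S211I replicate 2. For Nup133 that library had 148 CPM and S211I replicate 1 had 0, so the S211I rise of Nup133 rests on S211I replicate 2 alone. Nup188, at 0 in WT, was at least 14.8-, 64.6- and 17.6-fold higher, the second of these with S211I replicate 2 in the group. The P216L bound of Nup188 rests on 1 library, with the other P216L libraries at 0. Such bounds cover counting error only and not the spread between libraries. Ipo13 went the other way in P216L, where it was at 0 in 3 libraries against 0, 34.1 and 114 CPM in WT, at least 34.6-fold lower without a call (edgeR, adjusted p = 0.372). DESeq2 called Nup188 and Ipo13 in P216L and Nup188 in S211I and the double mutant, and did not call Kpna2 (adjusted p = 0.0993, 0.37 and 0.103). Voom called 0 members in P216L, 6 in S211I (Nup62, Ipo9, Nup188, Nup54, Nup37 and Nup205) and 3 in the double mutant (Nup62, Ipo9 and Nup133). The S211I calls by DESeq2 and voom include S211I replicate 2. The shares of all genes that DESeq2 and voom called are not given here.

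The export receptor Xpo1 differed from WT HSC by 0.41 ± 1.32 in P216L, 1.14 ± 1.46 in S211I and -0.06 ± 1.32 in the double mutant (edgeR, adjusted p = 1 in each). Each SE exceeded 1 on the log2 scale, so a change of 2-fold in Xpo1 was not detectable here. Cse1l differed by -2.57 ± 1.49, 0.97 ± 1.54 and -0.31 ± 1.40 (adjusted p = 0.444, 1 and 1), and Kpnb1 by 2.66 ± 2.45, 2.60 ± 2.59 and 0.47 ± 2.31 (0.816, 0.98 and 1). Ran differed by 0.68 ± 0.80, 0.91 ± 0.88 and 0.36 ± 0.80 (0.912, 0.971 and 1). Rcc1 differed by 4.23 ± 2.37, 4.02 ± 2.44 and 3.03 ± 2.25 (0.423, 0.656 and 0.778). Without S211I replicate 2 the S211I values were 0.92 for Xpo1, 0.80 for Cse1l, 0.56 for Kpnb1, 1.75 for Rcc1 and, reversed, -1.26 for Ran, none past the threshold. The median SE over the members was 2.14, 2.29 and 2.12. Between the double mutant and P216L in HSC, 0 of 47 members were called (edgeR, 0.0211% of all genes, 1 member at an unadjusted p under 0.05, 0 by DESeq2 and by voom), and the member closest to the threshold was Ipo13 (adjusted p = 0.712). There Xpo1 differed by -0.47 ± 1.32, Cse1l by 2.26 ± 1.47, Kpnb1 by -2.20 ± 2.39, Ran by -0.32 ± 0.80 and Rcc1 by -1.20 ± 2.08 (adjusted p = 1 in each).

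MEP gave a far tighter comparison. No member was called in P216L, S211I or the double mutant against WT, or in the double mutant against P216L (0 of 47 in each, edgeR), where 0, 0, 0.102 and 0.111% of the 10773 genes were called. The last 2 percentages split into 0.0278% higher and 0.0743% lower in the double mutant against WT, and 0.00928% higher in the double mutant against P216L. At an unadjusted p under 0.05 there were 1, 3, 2 and 0 members, and DESeq2 and voom called 0 in each. The median SE was 0.162, 0.178, 0.161 and 0.146, and 47 of 47 members lay within 2-fold in each comparison, from -0.78 (Nutf2 in S211I) to 0.65 (Xpo7 in S211I). Medians over the members were -0.08, 0.03, -0.04 and 0.05, and those over all genes were 0.01, 0.00, 0.01 and 0.00.

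By library, Xpo1 had 292.5 and 291.5 CPM in WT MEP, 280.0, 357 and 191 in P216L, and 394 and 312 in S211I. The double mutant libraries had 309.6, 288 and 270.2 CPM of Xpo1. The WT values lay within the range of P216L and within that of the double mutant, and both S211I values lay above them. The differences from WT were -0.10 ± 0.18, 0.24 ± 0.20 and -0.03 ± 0.18 (edgeR, adjusted p = 0.991, 0.939 and 0.999), and 0.07 ± 0.16 between the double mutant and P216L (adjusted p = 1). Kpna2 had 905 and 1119.5 CPM in WT MEP, 825, 899 and 953 in P216L, and 981 and 963 in S211I. The double mutant had 712, 979 and 767 CPM of Kpna2. These groups overlapped, and the differences from WT were -0.20 ± 0.13, -0.10 ± 0.14 and -0.32 ± 0.13 (edgeR, adjusted p = 0.984, 0.967 and 0.94), with -0.12 ± 0.12 between the double mutant and P216L (adjusted p = 1).

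Kpnb1 was among the 3 members with the smallest p in each mutant against WT. It had 168 and 155 CPM in WT MEP, 108, 145 and 146 in P216L, and 139 and 109 in S211I. The double mutant had 118, 124 and 144 CPM of Kpnb1. All 8 mutant MEP libraries lay below both WT libraries, a pattern shown by 1.49% of all genes. The differences were -0.30 ± 0.16, -0.41 ± 0.17 and -0.34 ± 0.16 (edgeR, adjusted p = 0.984, 0.939 and 0.945), none past the threshold, and the 3 share the same 2 WT libraries. Between the double mutant and P216L the difference was -0.03 ± 0.14 (adjusted p = 1). Ipo5 and Xpot had the other small p in P216L (-0.28 ± 0.13 and -0.24 ± 0.14, adjusted p = 0.976 and 0.984), Nutf2 and Xpo7 in S211I (-0.78 ± 0.35 and 0.65 ± 0.31, adjusted p = 0.939 for both), and Nup50 with Kpna2 in the double mutant (-0.29 ± 0.15, adjusted p = 0.981 for Nup50). Tnpo1, Xpo5 and Ipo5 had the smallest p between the double mutant and P216L (0.26 ± 0.14, 0.22 ± 0.14 and 0.15 ± 0.12, adjusted p = 1 in each).

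Cse1l, Ran and Rcc1 varied little in MEP. Against WT, Cse1l differed by -0.02 ± 0.12, 0.03 ± 0.14 and 0.05 ± 0.12, Ran by 0.07 ± 0.11, -0.18 ± 0.12 and 0.05 ± 0.11, and Rcc1 by -0.10 ± 0.15, -0.17 ± 0.16 and -0.03 ± 0.15 (edgeR, adjusted p from 0.939 to 0.999). Between the double mutant and P216L the 3 differed by 0.07 ± 0.11, -0.02 ± 0.10 and 0.06 ± 0.13 (adjusted p = 1 in each). In P216L against WT, 38 of the 47 members were below 0. P216L replicate 3, the shallowest MEP library at 3387389 counts, was the lowest of the 10 MEP libraries for 28 of the 47 members, and without it 20 were below 0 and the members' median was 0.03 in place of -0.08.

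**Figure D5:**
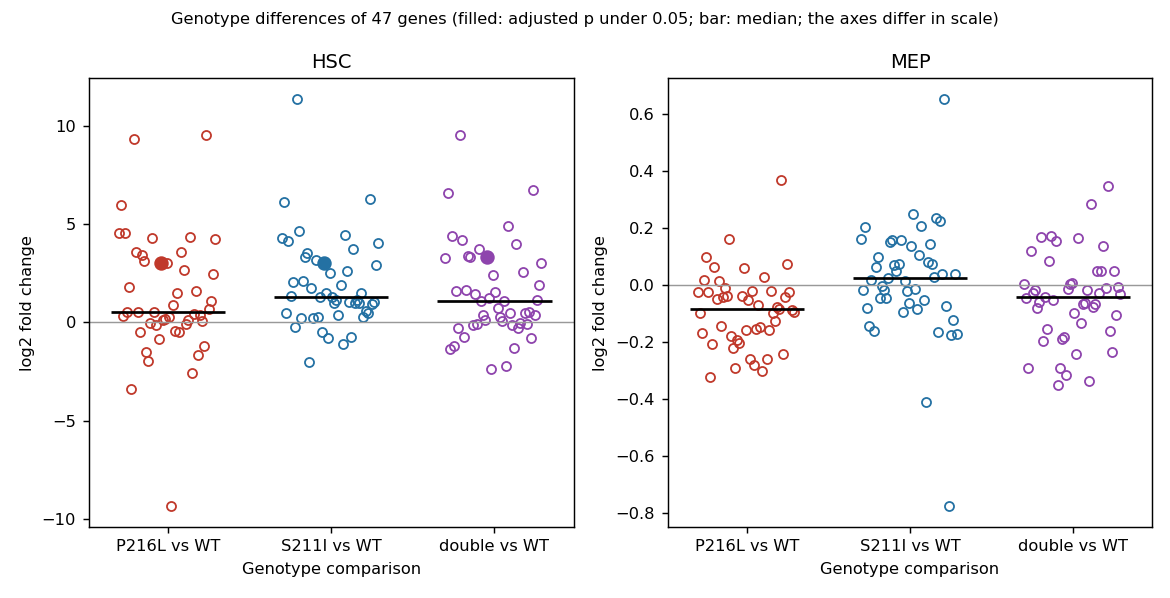
Difference of each mutant from WT (log2) for the 47 tested members (points) in HSC (left) and MEP (right), with a bar at the median. The axes differ in scale: MEP points lie between -0.78 and 0.65, HSC points between -9.36 and 11.36, and Kpna2 is the only filled point by edgeR (adjusted p under 0.05) in each HSC column.

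Whether a mutant's effect differed between HSC and MEP was tested directly in the joint fit. Among the 47 members, 0 passed for P216L, S211I or the double mutant (edgeR, 0.0997, 0 and 0.0166% of all genes called, 10, 6 and 9 members at an unadjusted p under 0.05, 0 by voom). Kpna2 differed by 3.30 ± 1.14, 3.19 ± 1.26 and 3.77 ± 1.14 (HSC minus MEP, adjusted p = 0.202, 0.397 and 0.204), so its rise was called in HSC and not in MEP while the difference between the cell types did not pass. DESeq2 called Nup188, Ipo13 and Nup133 for P216L, Nup188 for S211I, and Nup188 and Nup133 for the double mutant. Without HSC WT replicate 1, Nup62 passed in each of the 3 (edgeR, adjusted p = 0.00307, 0.00557 and 0.00341). Xpo1 differed by 0.64 ± 1.49, 1.02 ± 1.65 and 0.10 ± 1.498 (adjusted p = 1, 0.929 and 1), Kpnb1 by 2.99 ± 1.99, 3.12 ± 2.21 and 0.95 ± 1.99 (0.515, 0.63 and 1), and Cse1l by -2.45 ± 1.60, 1.07 ± 1.71 and -0.20 ± 1.55 (0.5, 0.927 and 1). Ran differed by 0.67 ± 0.84, 1.24 ± 0.93 and 0.46 ± 0.84 (0.865, 0.662 and 0.987), and Rcc1 by 4.38 ± 1.76, 4.30 ± 1.95 and 3.15 ± 1.75 (0.232, 0.442 and 0.405). Without HSC S211I replicate 2 the S211I values were 2.50 for Kpna2, 0.55 for Xpo1, 0.80 for Kpnb1, 0.64 for Cse1l, 1.79 for Rcc1 and, reversed, -1.21 for Ran (edgeR, adjusted p from 0.543 to 1).

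A list of 35 further nuclear transport genes, outside the naming rule, was read beside the members. It holds pore proteins with other names, mRNA export factors and receptors with other names. Between cell types 12 of the 35 were called higher in MEP by the fit and 0 lower, with a median of 1.75. Over all genes tested, 16.2% were called higher and 6% lower. The fit averages 3 genotypes on the log scale, so a group at 0 raises its value and makes it depend on the prior count. Thoc5 was called at 3.96 with plain means of 78.5 CPM in MEP and 78.9 in HSC. The smallest p belonged to Pom121 (6.30 ± 1.36, edgeR, adjusted p = 0.00289), which anchors the pore in the membrane, and Nupl2 (4.96 ± 1.10, adjusted p = 0.00319), a pore protein of the cytoplasmic face. Next came Ranbp17 (6.72 ± 1.47, edgeR, adjusted p = 0.00355), a relative of the exportins, Thoc6 (4.77 ± 1.18, adjusted p = 0.00646) and the membrane anchor Ndc1 (3.26 ± 0.89, adjusted p = 0.0114). Pom121 averaged 82.9 CPM in MEP and 11.3 in HSC, Ranbp17 15.8 and 1.40 and Thoc6 60.2 and 15.8, and each was at 0 in WT HSC. Ranbp2, the large filament protein of the cytoplasmic face, averaged 99.5 CPM in HSC and 233 in MEP and differed by 1.75 ± 0.55 (edgeR, adjusted p = 0.0234). Sec13, Ddx19a, Thoc5, Ncbp1, Phax and Snupn made up the rest. In WT alone 7 of the 35 passed, all higher in MEP (Sec13, Phax, Thoc6, Thoc5, Seh1l, Ddx19a and Pom121), against 3.62% of all genes called higher. Of these, 5 were at 0 in WT HSC. Among HSC genotypes 0 of the 33 tested passed in any comparison, and in MEP 0 of 35 (edgeR, with at most 7 and 2 at an unadjusted p under 0.05).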

How the data were processed

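RNA of sorted cells was purified with NucleoSpin RNA XS and amplified with SMART-Seq v4, per the labels' protocols. The authors deposited 1 table of estimated counts per gene for 21 libraries. Salmon and GRCm39 are named in the submitters' processing notes, with no Salmon version given in the sources used here. The estimated counts were rounded to whole numbers, and CPM was computed from them. Genes were matched by Entrez ID (30211 of 30519 had a symbol). Members and gene lists were chosen with earlier results of these data known. Low genes were removed with filterByExpr (minimum count 10, total 15). edgeR 4.0.16 (R 4.3.3) tested TMM-scaled counts by the robust quasi-likelihood test, with Benjamini-Hochberg adjustment over all genes: a joint fit of 21 libraries (12036 genes) for cell types and for differences of effects, and separate fits of HSC (9471) and MEP (10773). Text names the members called in a genotype comparison, the 12 called with the smallest p between cell types, 6 core genes (Xpo1, Kpna2, Kpnb1, Cse1l, Ran and Rcc1) throughout, and the 3 smallest p in each MEP comparison. Other members are given by counts and ranges or were picked after their values were seen. Alternatives were RLE scaling, no filter, a replicate block, limma 3.58.1 (voom with quality weights), DESeq2 1.42.0, only the groups compared, each library left out, and counts thinned to 151216. A count of 3 equals 1.33 to 19.8 CPM in HSC and 0.247 to 0.886 in MEP. Bounds against groups at 0 use 3 counts over the group and cover counting error only. Per-kilobase values use the longest coding transcript of GENCODE M21.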

Additional observations from a re-analysis of the deposited data

How the results depend on the processing

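Of the results recomputed under the alternatives, 1444 kept direction and side of the threshold, 97 lost a call, 18 gained one and 64 changed sign, where the cause was not tested. The HSC libraries were shallower than MEP, and the members' median SE was 2.07 to 2.29 in HSC and 0.146 to 0.178 in MEP, where the part of depth was not tested. Shares of all genes called are given for the main edgeR fits only, so the counts of members under the alternatives have no such share beside them. The counts of members at an unadjusted p under 0.05 have none either. The members called between cell types (12 over the 3 genotypes) were 5 with RLE size factors, 31 with voom, 15 with a replicate block and 8 to 25 with a library left out. In WT (5) they were 2 with RLE, 15 with voom, 9 with DESeq2, 0 with only the groups compared, 9 with thinned counts, 7 with a replicate block and 0 to 9 with a library left out. In P216L (0) they were 3 with DESeq2, 1 with only the groups compared and 0 to 1 with a library left out, and in the double mutant (0) 3 with only the groups compared. In HSC each mutant against WT (1) gave 0 with no filter, only the groups compared or thinned counts, 0 to 1 with a library left out and 1 with a replicate block. P216L also gave 0 with voom and 2 with DESeq2, S211I 0 with RLE and 6 with voom, and the double mutant 3 with voom. The difference of effects (0) gave 3, 1 and 2 with DESeq2 for P216L, S211I and the double mutant, and 0 to 1 with a library left out. Replicate numbers did not pair the samples: 1 of 15 same-numbered HSC pairs and 0 of 12 MEP pairs had correlated deviations above 0.1.

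Every sign change was in a value that did not pass. Between cell types, Kpna2 in P216L was -0.212 with RLE, -0.212 with DESeq2, -0.101 with thinned counts and -0.094 to 0.917 with a library left out, and in the double mutant 0.064 with voom and -0.646 to 0.534. In HSC, with a library left out, Xpo1 ranged from -0.671 to 1.512 in P216L, Ran from -1.255 to 2.152 in S211I, and, in the double mutant against WT, Xpo1 from -0.66 to 1.039 (0.357 with a replicate block, 0.567 with voom), Kpnb1 from -2.225 to 2.346 (-1.15 with voom) and Cse1l from -0.922 to 0.571 (0.803 with voom). Against P216L the double mutant gave Xpo1 -1.021 to 0.604 (0.225 with a replicate block), Kpna2 -0.443 to 0.907, Kpnb1 -4.803 to 0.209 and Rcc1 0.376 with a replicate block. In MEP P216L the ranges were -0.317 to 0.099 for Xpo1, -0.143 to 0.087 for Cse1l, -0.01 to 0.144 for Ran and -0.233 to 0.023 for Rcc1. In MEP S211I they were -0.231 to 0.051 for Kpna2 and -0.012 to 0.063 for Cse1l (-0.055 with a replicate block). In the MEP double mutant against WT they were -0.075 to 0.01 for Xpo1, -0.03 to 0.122 for Ran and -0.16 to 0.074 for Rcc1. Against P216L they were -0.128 to 0.285 for Xpo1, -0.171 to 0.043 for Kpnb1 (0.067 with voom), -0.038 to 0.189 for Cse1l, -0.105 to 0.059 for Ran and -0.066 to 0.2 for Rcc1. For the difference of effects, Xpo1 ranged from -0.463 to 1.829 in P216L and Ran from -1.205 to 2.154 in S211I. In the double mutant Xpo1 was -0.233 with RLE, -0.024 with no filter, -0.231 with DESeq2, -0.041 with only the groups compared, -0.264 with thinned counts and -0.44 to 1.288 with a library left out, Kpnb1 -0.005 with voom and -1.61 to 2.794, and Cse1l 0.722 with voom and -0.754 to 0.765.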
